A study of Mus musculus with 24 samples.

Results

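The genes examined here are Lyz2, Lgals3, Mmp12 and Ptafr, which are typical of macrophages, and Tcra, which encodes the alpha chain of the T cell receptor. They are 5 of the 96 genes on a custom NanoString nCounter panel and were taken by name, with no threshold on their values. The panel was read in regulatory T cells (Tregs) from the visceral fat of 24 male C57/Bl6 mice, to ask what loss of the insulin receptor does to these cells when insulin is chronically high. Fat from each animal was digested separately, CD45+ CD4+ cells positive for the Foxp3 reporter, Foxp3(YFP)+, were sorted and lysed, and each lysate was counted on the panel, so a sample is a mouse. Every mouse carried Foxp3-YFP-Cre, in which the Foxp3 gene drives Cre and a yellow fluorescent protein.

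Knockout mice were Foxp3-YFP-cre;Insr-fl/fl and control mice Foxp3-YFP-Cre;Insr-wt/wt. The HFD groups, fed a diet rich in fat and sucrose, held 5 knockout and 4 control mice. In the aged groups, kept on normal chow to 52 weeks, there were 6 knockout and 3 control mice. On normal chow (NCD) to 16 weeks there were 3 knockout and 3 control mice, called young below. Both diets of these younger animals began at 3 weeks of age and lasted 13 weeks, so HFD mice were also 16 weeks old. The labels state that this Cre line also recombines outside Tregs, which limits the knockout as a model of loss in Tregs alone, and that F4 animals were used.

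Lyz2 encodes lysozyme M, which macrophages, monocytes and neutrophils make to digest bacterial walls. Galectin-3 (Lgals3) is a sugar-binding protein abundant in macrophages of fat, macrophage elastase (Mmp12) cuts elastin and other matrix proteins, and Ptafr is the receptor for the lipid mediator platelet-activating factor. T cells assemble the alpha chain from segments of the Tcra locus, pair it with a beta chain and need it to recognise antigen, while macrophages do not carry this receptor.

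In RefSeq's GRCm38.p6 annotation, Lyz2 lies at chr10:117277541-117282272, Lgals3 at chr14:47373860-47386167, Mmp12 at chr9:7344397-7360461, Ptafr at chr4:132564067-132582683 and Tcra at chr14:52427967-54224198. Promoter sequence, from 250 bases before to 50 bases after a gene's start, was at hand for 4 of the 5 genes. The promoters of Lyz2 (chr10:117282223-117282522, minus strand) and of the first start of Mmp12 (chr9:7344147-7344446, plus strand) are shown because these were the macrophage genes with the widest differences between aged and young mice. Capitals mark a match to GAGGAA, a purine-rich core that ETS factors such as PU.1 bind, read on the opposite strand and so printed as its reverse complement, TTCCTC.
Lyz2: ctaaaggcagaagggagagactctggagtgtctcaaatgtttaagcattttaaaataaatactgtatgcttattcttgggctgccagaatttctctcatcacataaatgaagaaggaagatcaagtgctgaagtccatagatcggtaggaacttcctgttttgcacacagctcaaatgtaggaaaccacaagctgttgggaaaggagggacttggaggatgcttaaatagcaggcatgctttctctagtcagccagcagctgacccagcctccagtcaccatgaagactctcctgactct
Mmp12: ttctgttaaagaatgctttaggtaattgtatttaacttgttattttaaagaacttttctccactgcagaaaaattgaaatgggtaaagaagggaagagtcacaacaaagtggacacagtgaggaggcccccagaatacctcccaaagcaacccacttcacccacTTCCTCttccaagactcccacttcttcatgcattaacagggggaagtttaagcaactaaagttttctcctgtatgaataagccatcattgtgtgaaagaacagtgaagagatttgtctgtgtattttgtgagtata
The Mmp12 match began at -86 relative to the gene's start, and Ptafr had another at -242, also on the opposite strand. TGANTCA, the AP-1 motif, was found only at the second Mmp12 start, at -44. Both motifs were searched on both strands and do not overlap each other. Of 32851 mouse promoters of the same length, 28.3% held GAGGAA and 7.81% held TGANTCA, and the promoters of Lyz2 and Lgals3 held neither. Other sequences that ETS factors may bind were not searched, so this does not show that these promoters lack an ETS site.

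The deposited signal is linear and scaled by the authors so that the panel of a mouse sums to about 100000, with sums of 100000 to 126723. Knockout mice had sums of 100000 to 100422 and young controls 109979, 103368 and 126723, so the scaling was not even across groups. Nearly every value was a whole multiple of a step of its sample, which gave the counts behind it; total counts ran from 11446 to 224793, with a median of 49098. The insulin receptor gene checked the labels, since its signal was 1.78 to 8.57 in HFD knockout mice against 49.8 to 125 in HFD controls, 2.23 to 18.6 in aged knockout mice against 294 to 513 in aged controls, and 4.21 to 17.5 in young knockout mice against 59.5 to 159 in young controls. Differences were tested with limma on log2(signal + 1) over all 24 mice, with p-values adjusted over the 96 genes by the Benjamini-Hochberg method and 0.05 as the threshold. Fold changes on this scale understate those of low genes.

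Depth set how far each gene could be read. Lgals3 had the lowest median count of the 96 genes, 3, and lay between 1 and 16 counts, under 20 in all 24 mice. Ptafr was under 20 counts in 19 mice and Mmp12 in 15. Lyz2 ranged from 17 to 4498 counts and Tcra from 10 to 3104. Mice of a group also differed widely: the within-group SD on the log2 scale was 1.91 for Mmp12, the highest of all genes, 1.70 for Lyz2 (rank 3) and 1.61 for Tcra (rank 4), against a panel median of 0.83. Ptafr had 1.23 and Lgals3 1.13. The signal of Lgals3 followed depth inversely, with a Spearman rho of -0.67 to the total count, and the other 4 genes lay between -0.34 and 0.24.

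Lyz2 signal was higher in aged than in young knockout mice and passed the test there. Its signal in the 6 aged knockout mice had a lowest value of 198, a median of 1255 and a highest value of 6875. The 3 aged controls had 4806, 2937 and 132. Aged mice of both genotypes therefore held most of the high values, and replicate 3 of the aged controls lay among the younger animals. HFD knockout mice had Lyz2 signals of 48.6, 282, 127, 30.5 and 30.7, against 126, 33.4, 453 and 158 in HFD controls. Young knockout mice had 108, 105 and 227, against 422, 226 and 48.2 in young controls. In each of these pairs the genotypes overlapped.

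Lyz2 rose in aged against young knockout mice by 2.96 on the log2 scale (SE 1.11, limma adjusted p = 0.028), although the lowest aged mouse, at 198, was within the young range. It was the only call among the 5 genes in this comparison, in which 54.2% of the panel passed in either direction and 12.5% passed as higher. The call was not made by voom on the recovered counts (adjusted p = 0.071). It also rested on few mice: the adjusted p was 0.094 without young knockout replicate 1, 0.087 without young knockout replicate 2, and 0.062 without aged knockout replicate 6. In aged against young controls the Lyz2 difference was 2.88 (SE 1.28, 95% interval 0.23 to 5.52, limma adjusted p = 0.16). Without aged control replicate 3, the lowest of the aged controls, it was 4.48, with a limma adjusted p of 0.038. Leaving out any other mouse gave no call there. Knockout and control mice did not differ detectably in Lyz2 at any age or diet, and the intervals were wide: for aged knockout against aged control the difference was -0.20 with a 95% interval of -2.49 to 2.09.

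Mmp12 had its highest values in aged mice. Its signal in aged knockout mice had a lowest value of 4.19, a median of 95.9 and a highest value of 418, against 652, 35.8 and 36.8 in aged controls. Young knockout mice had 4.91, 8.42 and 8.74, against 3.17, 5.95 and 17.9 in young controls. The aged controls were all above the young controls, as was so for 18.8% of the panel's genes in that comparison. By contrast, 2 aged knockout mice, at 4.19 and 7.43, lay within or below the young knockout range. HFD knockout mice had 28.6, 10.02, 0, 18.5 and 13.3, against 30.6, 3.28, 7.75 and 33.4 in HFD controls, and the genotypes overlapped. The difference between aged and young was 2.69 in knockout mice (SE 1.23, limma adjusted p = 0.070) and 3.57 in controls (SE 1.42, limma adjusted p = 0.11), so neither passed. When each mouse was left out in turn, the first passed only without a low aged knockout mouse. These were replicate 1 (signal 7.43, limma adjusted p = 0.029) and replicate 6 (signal 4.19, limma adjusted p = 0.022). Most Mmp12 values of young mice rest on 1 or 2 counts.

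Ptafr had signals from 16.3 to 116 with a median of 52.1 in aged knockout mice, against 64.1, 25.1 and 14.7 in aged controls. Young knockout mice had 9.82, 8.42 and 26.2, against 6.34, 11.9 and 10.7 in young controls. The aged controls were again all above the young controls, as were 18.8% of the panel's genes in that comparison, and the aged and young knockout mice overlapped. Under HFD the values were 37.2, 5.01, 6.60, 3.70 and 2.22 in knockout mice and 28.5, 0.656, 10.1 and 4.17 in controls. The difference between aged and young was 1.72 in knockout mice (SE 0.81, limma adjusted p = 0.079) and 1.53 in controls (SE 0.94, limma adjusted p = 0.31). Of all mice left out in turn, only the lowest aged knockout mice changed the first to a call. These were replicate 1 (signal 19.3, limma adjusted p = 0.047) and replicate 4 (signal 16.3, limma adjusted p = 0.0497).

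Lgals3 differed between aged and young mice by 0.87 in knockout mice (SE 0.75, limma adjusted p = 0.35) and by -0.30 in controls (SE 0.87, limma adjusted p = 0.86). Its signal in aged knockout mice ran from 2.23 to 65.2 with a median of 24.3, against 12.8, 3.58 and 11.03 in aged controls. HFD knockout mice had the lowest mean, with values of 5.72, 1.00, 1.65, 2.78 and 0.890, against 16.3, 3.28, 3.88 and 12.5 in HFD controls. These HFD values stand on 1 to 3 counts in knockout mice and on 3 to 8 counts in controls, and the groups overlapped. Young knockout mice had 9.82, 4.21 and 26.2, against 9.52, 23.8 and 4.46 in young controls. Lgals3 differed by -1.93 between HFD and young knockout mice (SE 0.78, limma adjusted p = 0.091), which missed the threshold. Median total counts were 99771 in HFD and 20360 in young knockout mice, and with the log2 total count as a covariate the difference was -0.021 (SE 0.65). The difference between aged knockout and aged control mice was 1.21 (SE 0.75, limma adjusted p = 0.24). Among the fits that left out a mouse, it passed only without aged knockout replicate 1, the lowest of its group at 2.23. It was then 1.75 (limma adjusted p = 0.047).

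**Figure D1:**
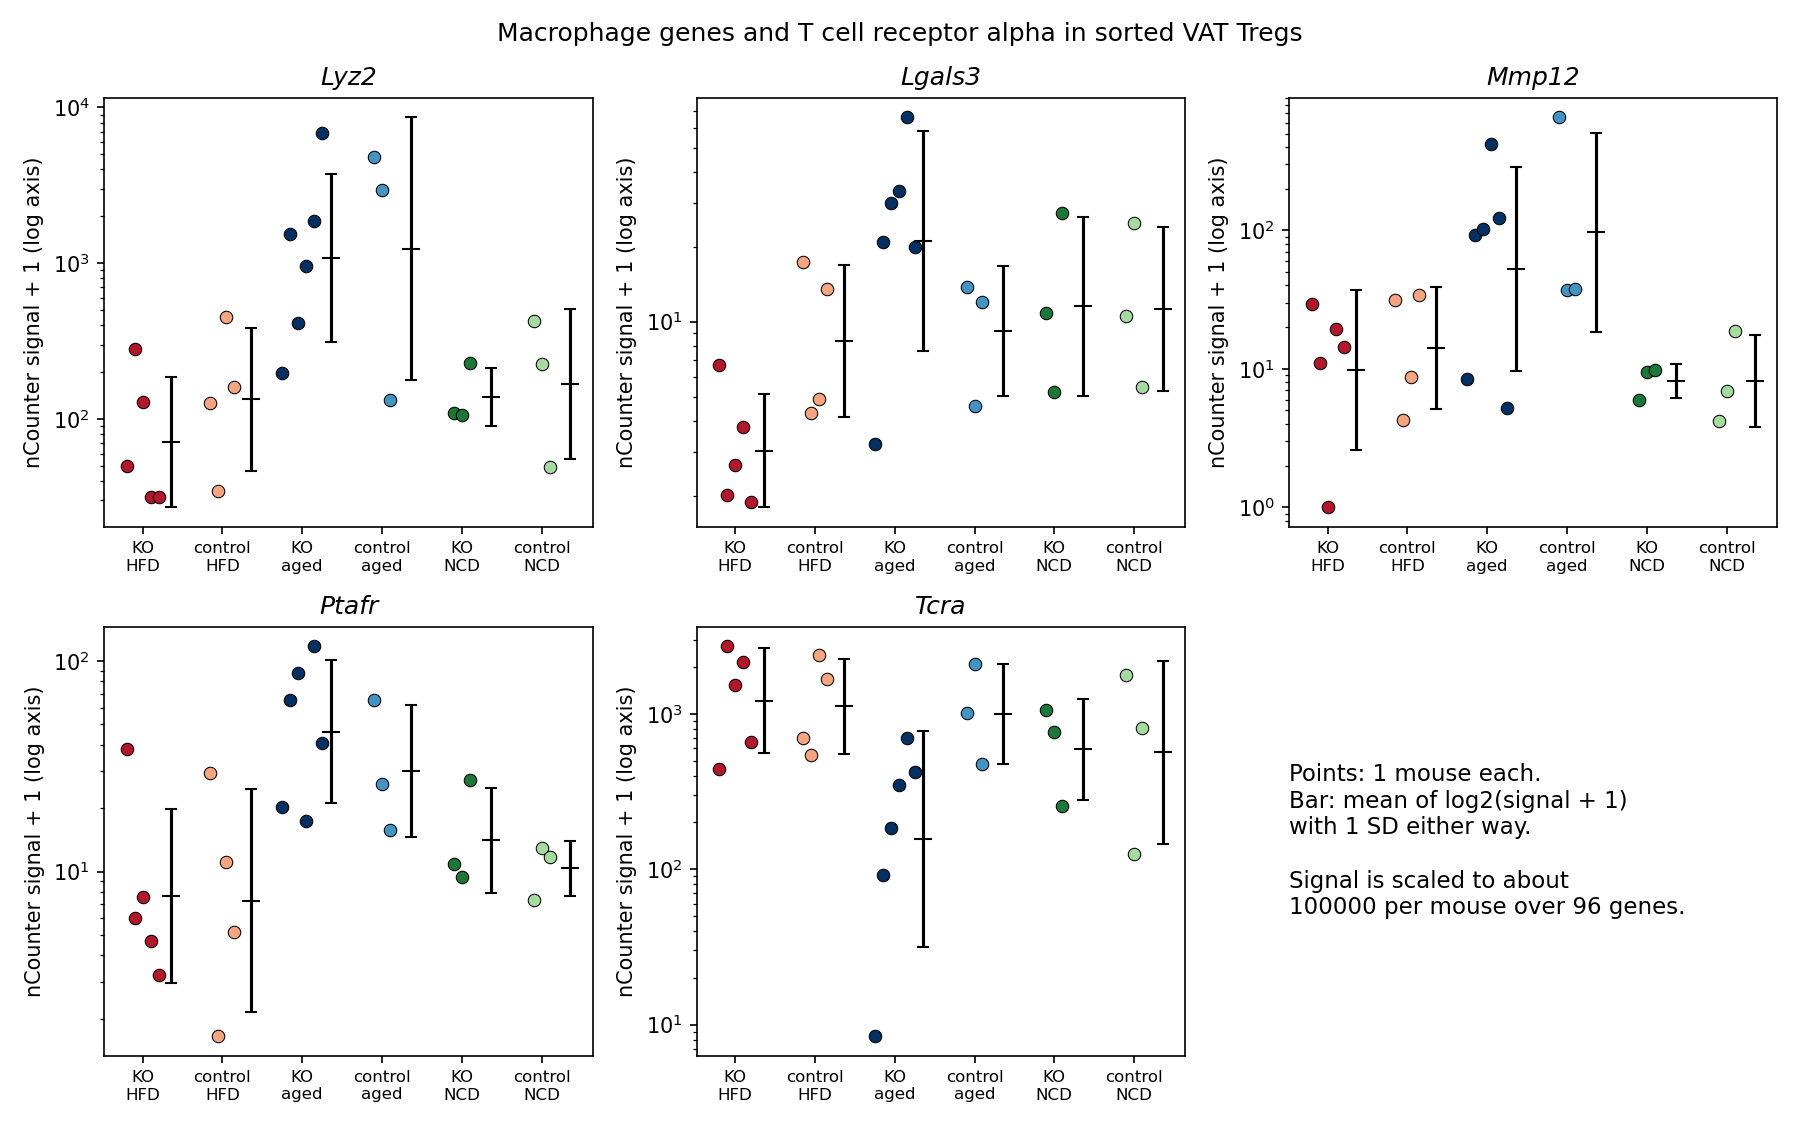
Signal + 1 of Lyz2, Lgals3, Mmp12, Ptafr and Tcra in each mouse, on a log axis, by group. Points are mice and bars the group mean of log2(signal + 1) with 1 SD. Lyz2 is high in most aged mice of both genotypes, and Tcra is low in aged knockout mice.

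Tcra was low in aged knockout mice, and the difference from aged controls fell short of the threshold. Its signal in aged knockout mice had a lowest value of 7.43, a median of 266 and a highest value of 698, against 1010, 2090 and 474 in aged controls. Of the 6 aged knockout mice, 5 lay below the lowest aged control, and replicate 5, at 698, lay above it. The lowest value stands on 10 counts in a sample of 135141 total counts, among the deepest here. HFD knockout mice had 443, 2725, 1526, 2167 and 656, against 699, 545, 2406 and 1688 in HFD controls. Young knockout mice had 1066, 762 and 253, against 1767, 125 and 808 in young controls.

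The Tcra difference between aged knockout and aged control mice was -2.68 (SE 1.05, 95% interval -4.85 to -0.50, limma adjusted p = 0.064). With each mouse left out in turn, it passed only without aged knockout replicate 5 (limma adjusted p = 0.030) or replicate 6 (limma adjusted p = 0.046). These had the highest Tcra signals of that group. The difference did not pass without replicate 1, which had the lowest at 7.43. In this comparison 24% of the panel passed and the median of all 96 genes was -0.60. Tcra was 0.12 (SE 1.00) under HFD and 0.067 (SE 1.21) on young chow in knockout against control mice. The difference between the aged and the young genotype effects was -2.74 (SE 1.60, limma adjusted p = 0.26), so an effect particular to age was not shown. Aged and young knockout mice differed by -1.92 (SE 1.05, limma adjusted p = 0.13), with overlapping values.

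**Figure D2:**
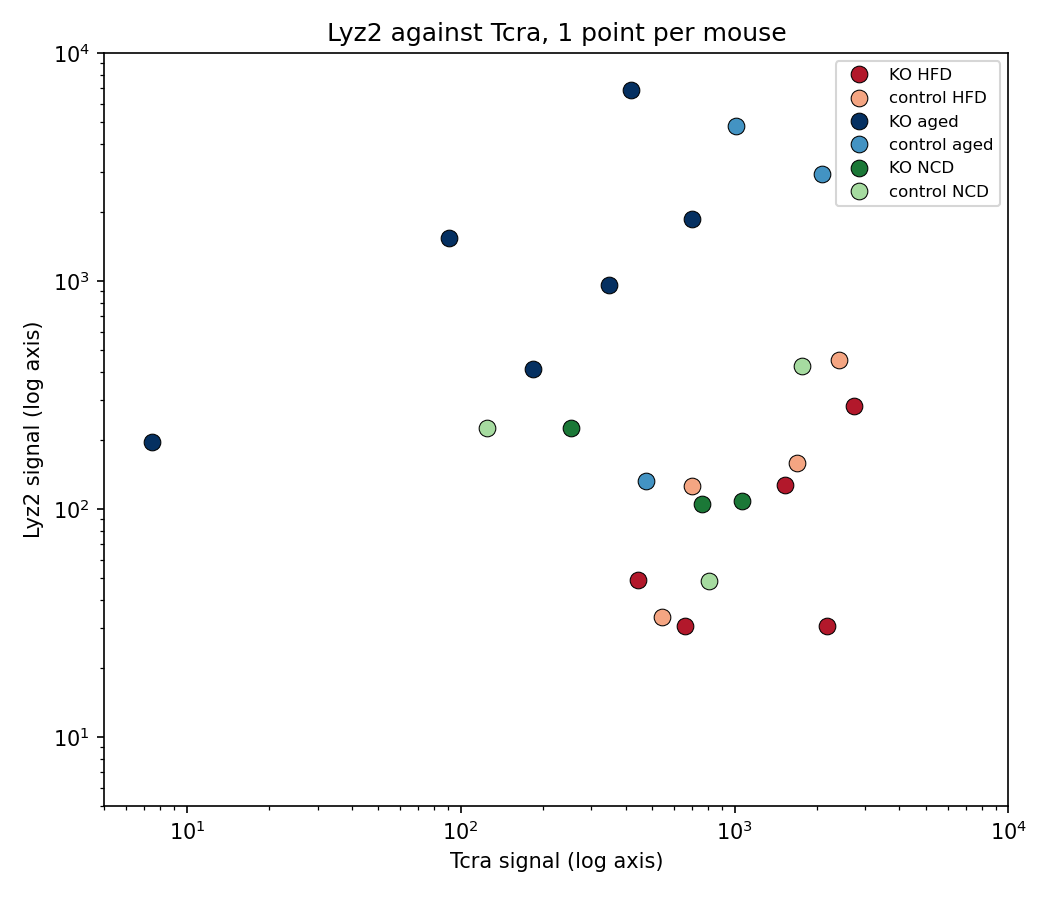
Lyz2 signal against Tcra signal in each of the 24 mice, both on log axes, with a colour for each group. The 6 aged knockout mice have more Lyz2 signal for their Tcra signal, with ratios of 2.24 to 26.6, than any HFD or young mouse.

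Within a mouse, a factor common to all genes cancels in the ratio of 2 genes, although the ratio does not give relative transcript numbers, because each gene has its own probe. The ratio of Lyz2 to Tcra signal ran from 2.24 to 26.6 in aged knockout mice, against 0.279 to 4.76 in aged controls. It ran from 0.0141 to 0.110 in HFD knockout mice against 0.0614 to 0.188 in HFD controls, and from 0.101 to 0.897 in young knockout mice against 0.0597 to 1.81 in young controls. All 6 aged knockout mice were thus above every HFD and young mouse, and they overlapped the aged controls. Low Tcra signal lifts the ratio of any gene, and the ratio to Tcra separated the same mice in this way for 2.11% of the other 95 panel genes. These were Lyz2 and Lmna, a gene of the nuclear lamina that is named here after its values were seen. On the log2 scale, Lyz2 minus Tcra averaged 2.78 ± 1.59 in aged knockout mice (SD, n = 6), against -2.10 ± 1.70 in young knockout mice (SD, n = 3), a difference of 4.88 with no overlap, which 9.47% of the 95 genes also showed.

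Lgals3 minus Tcra averaged -2.89 ± 1.07 in aged knockout mice (SD, n = 6), against -6.78 ± 1.84 in aged controls (SD, n = 3), a difference of 3.89 with no overlap. Of the 95 genes, 13.7% did not overlap either, 94 had a higher mean difference from Tcra in the aged knockout mice, and the median difference was 2.08. Lgals3 itself rests on 2 to 16 counts in these mice. Ptafr minus Tcra differed by 3.30 and Mmp12 minus Tcra by 1.79 between the same groups, and these overlapped. These differences combine a macrophage gene with Tcra and are given as values without a test. In lysates of sorted cells, fewer cells of a type and less RNA per cell cannot be told apart, so the ratio does not count cells.

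**Figure D3:**
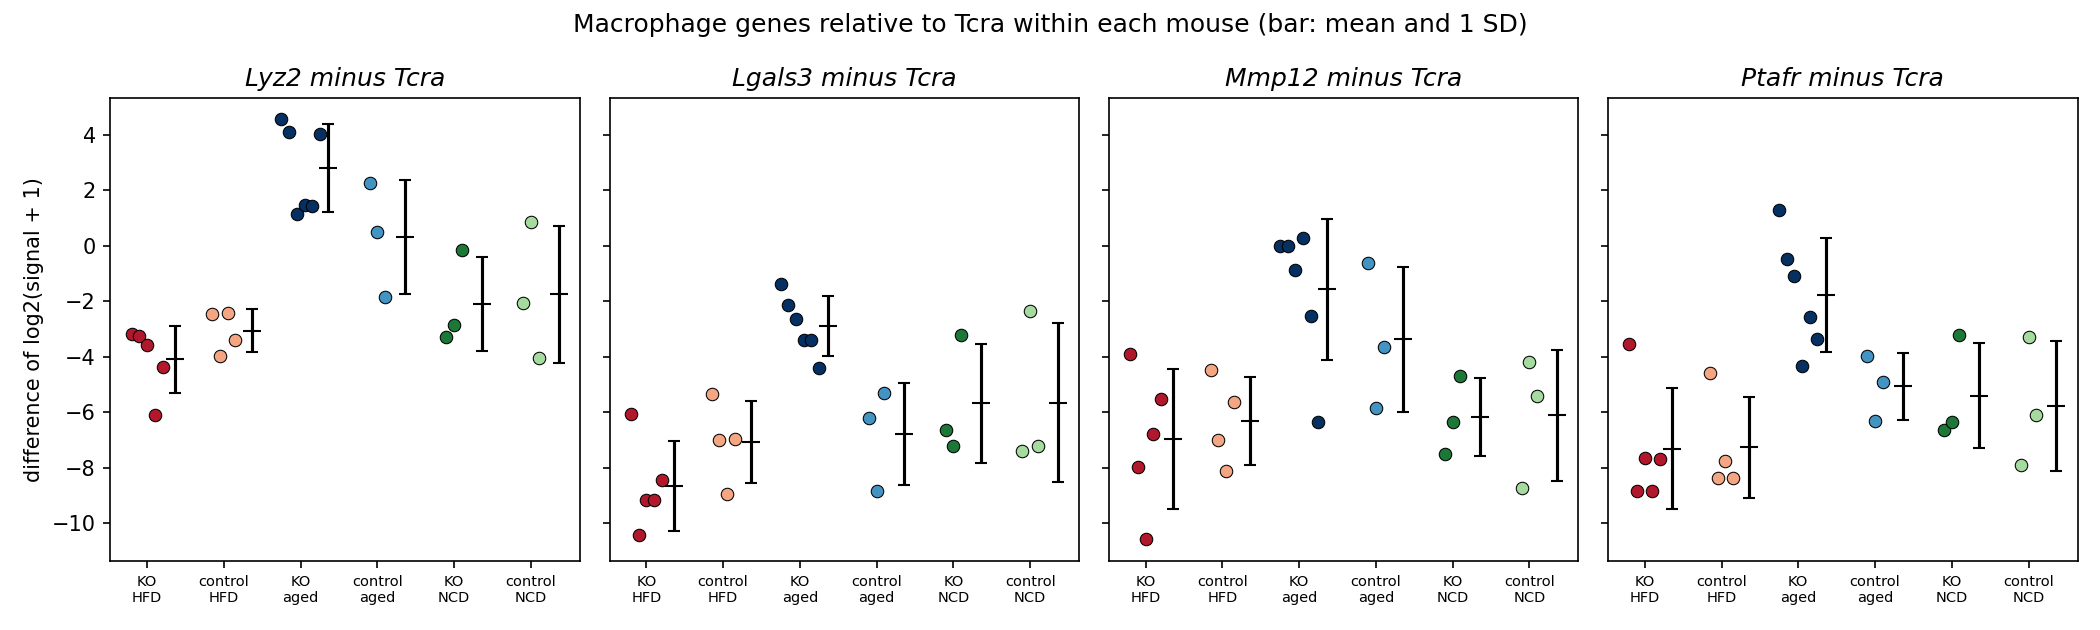
Difference of log2(signal + 1) between each macrophage gene and Tcra within a mouse, by group; points are mice and bars the group mean with 1 SD. Aged knockout mice have the highest mean in all 4 panels.

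None of the 5 genes passed the limma test between knockout and control mice in any setting of diet or age. Under HFD the counts were 0 of 5, with 0 at an unadjusted p under 0.05 and 0 by voom on the recovered counts, where 2.08% of the panel passed and 11.5% had an unadjusted p under 0.05. In young mice the counts were also 0, 0 and 0, where 5.21% of the panel passed and 12.5% did so unadjusted. In aged mice they were 0, 1 and 1, the gene being Tcra in both counts, where 24% of the panel passed and 37.5% did so unadjusted. The median of the 4 macrophage genes was -0.72, 0.016 and 0.22 under HFD, on young chow and in aged mice, against medians of all 96 genes of -0.097, -0.078 and -0.60.

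Diet gave 0 of 5 calls in both genotypes, where 20.8% of the panel passed in controls and 17.7% in knockout mice. At an unadjusted p under 0.05 there were 0 of the 5 in controls and 1, Lgals3, in knockout mice, against 33.3% and 31.2% of the panel, and voom called 0 in either. Age gave 0 of 5 in controls, where 5.21% of the panel passed, with 2, Lyz2 and Mmp12, at an unadjusted p under 0.05 (26% of the panel) and 0 by voom. In knockout mice age gave 1 of 5, with 3 at an unadjusted p under 0.05 (58.3% of the panel) and 0 by voom. The macrophage genes had a median difference of 2.20 with age in both knockout and control mice, against -0.82 and -0.28 for all 96 genes. The age and the genotype comparisons share the aged and the young mice, and the diet comparisons share the young mice with them. Neither interaction called any of the 96 genes, with 12.5% at an unadjusted p under 0.05 for genotype by diet and 27.1% for genotype by age, and 0 of the 5 genes among them.

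**Figure D4:**
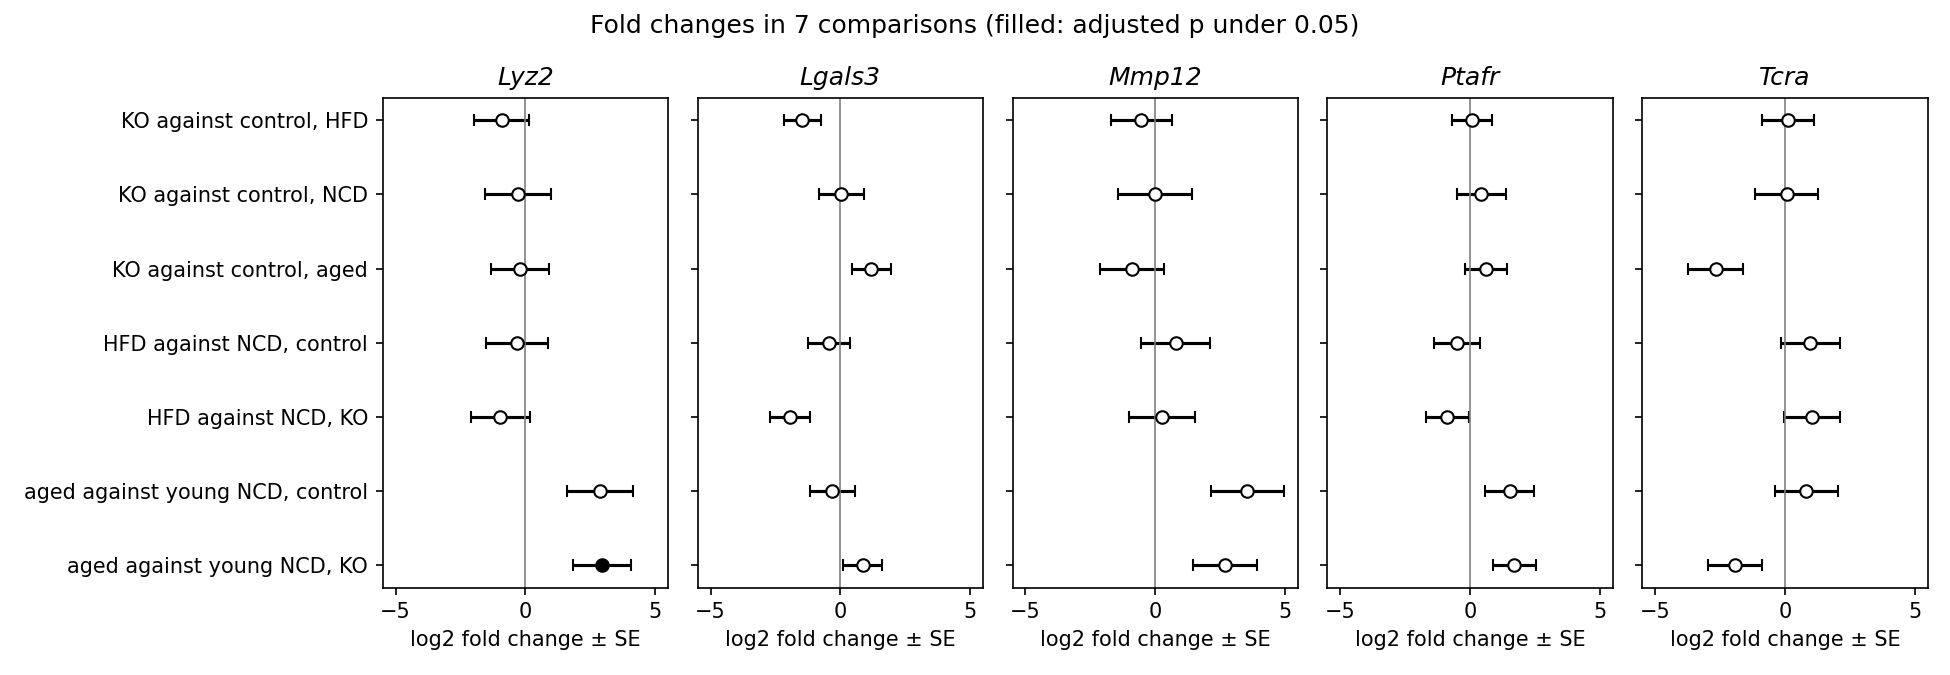
Log2 fold change of the 5 genes in each comparison between groups, with SE as error bars; filled points passed the limma test at an adjusted p of 0.05. The only filled point is Lyz2 in aged against young knockout mice.

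Treg genes and genes listed for stromal and endothelial cells differed in aged knockout samples, and summed Treg signal was also lower in aged than in young controls. Foxp3, the factor that defines Tregs, was measured in every mouse, with signals of 172 to 1418 in aged knockout mice against 1462 to 2257 in aged controls and 2107 to 4986 in the controls of the other groups. The 3 measured Treg genes, Foxp3, CD25 (Il2ra) and Helios (Ikzf2), all fell in aged knockout against aged control mice, where 20.8% of the panel fell, and in aged against young knockout mice, where 41.7% fell, with summed signals of 598 to 4114 in aged knockout mice, 3933 to 6650 in aged controls and 7942 to 9774 in young knockout mice. Young controls had a summed Treg signal of 10442 to 14361. None of the 3 genes passed in aged against young controls, where 5.21% of the panel passed. Of 7 genes on the stromal and endothelial list used here, 2 were measured, Igfbp7 and Cd9, too few to show that such cells were present. Both rose in aged knockout against aged control mice, where 3.12% of the panel rose. Their summed signals were 2443 to 9751 in aged knockout mice against 312 to 2426 in aged controls. Igfbp7 also rose in aged against young knockout mice, where the young sums were 516 to 559. Their part in the Lyz2 and Tcra values was not tested.

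Of 16 macrophage and monocyte genes on the list used here, 5 were measured, the 4 above and Ccr2, the receptor for the chemokine that draws monocytes into tissue. Ccr2 rose in aged against young knockout mice by 1.47 (limma adjusted p = 0.024), where 12.5% of the panel rose. It fell in young knockout against young control mice by 2.21 (limma adjusted p = 0.033), where 5.21% of the panel passed in either direction. The summed signal of the 5 was 468 to 7644 in aged knockout mice and 691 to 6780 in aged controls, 231 to 507 in young knockout mice and 774 to 1414 in young controls, and 223 to 474 in HFD knockout mice and 215 to 601 in HFD controls. Ccr2 is part of these sums, and the other 4 genes each overlapped between young knockout and young control mice. The separate sums of those groups therefore do not show a difference in Lyz2, Lgals3, Mmp12 or Ptafr. Mmp12 was at 0 in 1 HFD knockout mouse. Mmp9, a gelatinase of neutrophils and the only measured member of 7 neutrophil genes, fell in aged knockout against aged control mice by 2.55 (limma adjusted p = 0.030) and rose in aged against young controls by 3.93 (limma adjusted p = 0.012). Tcra was the only measured member of 9 T cell genes.

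Across all 24 mice, 5 of the 10 pairs of genes passed a permutation test of Pearson's r after adjustment over the pairs, and all 5 joined macrophage genes, with r from 0.51 to 0.68. The other macrophage pair, Lyz2 with Mmp12, did not pass (r = 0.43, rho = 0.31, adjusted permutation p = 0.056 and 0.18). The strongest was Lgals3 with Ptafr (r = 0.68, Spearman rho = 0.69, adjusted permutation p = 0.0023 and 0.0027), which gave r = 0.56 without the 2 mice farthest from the Lgals3 median. Lyz2 with Ptafr gave r = 0.67 (rho = 0.62, adjusted permutation p = 0.0023 and 0.0095), and r = 0.62 without the 2 mice farthest from the Lyz2 median. No pair with Tcra passed by r, and by Spearman's rho Tcra ran against Lgals3 (-0.50) and Ptafr (-0.51), each with an adjusted permutation p of 0.023. Neither of these passed after each sample was centred on 4 reference genes, with rho = -0.29 (adjusted permutation p = 0.21) for Lgals3 and rho = -0.35 (adjusted permutation p = 0.14) for Ptafr. The same centring made Lyz2 with Mmp12 pass by r (0.53, adjusted permutation p = 0.012) and not by rho (0.44, adjusted permutation p = 0.052). After the group means were removed, with permutation within groups, 0 of the 10 pairs passed, and the closest were Lgals3 with Ptafr (r = 0.58, adjusted permutation p = 0.055) and Lyz2 with Tcra (r = 0.53, adjusted permutation p = 0.090). Without that centring, the pooled relations therefore did not hold within groups at the threshold. With it, an alternative chosen after seeing the data, Lgals3 with Ptafr passed within groups (r = 0.60, adjusted permutation p = 0.018). Lyz2 with Tcra did so too (r = 0.63, adjusted permutation p = 0.044). Values of a mouse share the same panel total and the same depth. Lgals3 was under 20 counts in all 24 mice and Ptafr in 19. Their signals had a Spearman rho of -0.67 and -0.34 to the total count. The relation of Lgals3 with Ptafr, pooled or within groups, therefore cannot be told apart from shared depth.

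The panel genes with the patterns most like each of the 5, by Spearman's rho across the 24 mice, were as follows. For Lyz2 they were Anxa1 (0.74), Atf3 (0.74) and Myadm (0.72), and for Lgals3 Dmxl2 (0.77), Ccr3 (0.73) and Cd44 (0.71). Dmxl2, Ccr3 and Cd44 were under 20 counts in 23, 24 and 22 of the 24 mice, and Lgals3 in all 24. Lgals3 signal also followed the total count inversely (rho = -0.67), so likeness among such low genes cannot be told apart from shared depth. For Mmp12 they were Cd44 (0.58), Klf4 (0.57) and Tmem176a (0.56). Ptafr was most like Mmp9 (0.81), Anxa1 (0.78) and Atf3 (0.75). Ptafr and Mmp9 were each under 20 counts in 19 mice, and Mmp12 was so in 15. The likeness of Ptafr to Mmp9 and of Mmp12 to Cd44 therefore cannot be told apart from shared depth either. Tcra was most like Cxcr4 (0.80), AdipoR2 (0.72) and Gramd3 (0.71), and ran most strongly against Cdkn1a (-0.63), Igfbp7 (-0.61) and Anxa1 (-0.54).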

How the data were processed

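The deposited values are linear nCounter signal of 96 genes in 24 samples, which the authors had scaled to a panel total near 100000. The unit was read from the values; not given in the sources used here are background correction, use of positive controls, software and probe positions. Counts were recovered from a step specific to each sample: 2302 of 2304 entries were whole multiples of it to within 0.02 of a count. Groups came from the sample titles. limma 3.58.1 in R 4.3.3 was fitted to log2(signal + 1) with a mean for each of the 6 groups, and 7 differences and 2 interactions had their p-values adjusted over all 96 genes (Benjamini-Hochberg). It was checked on simulated data with 8-fold changes in 20 genes of higher counts. That check does not cover genes of low count or the wide spread of these 5 genes. Correlations used 100000 permutations (scipy 1.17.1). The 5 genes were always named; for each, the 3 genes of highest Spearman rho were named, for Tcra also the 3 of lowest, along with list genes that passed. The genes and lists were chosen with earlier results of these data known. P-values measure the spread between mice, which were digested separately, and counts cover counting error only. Alternatives were another pseudocount, a filter on low genes, 2 centrings, fitting only the groups compared, depth as a covariate, a replicate block, voom on the recovered counts and leaving out each mouse. Promoters and loci are RefSeq's (GRCm38.p6).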

Additional observations from a re-analysis of the deposited data

Results flagged for a closer look

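Among 15 groups of 4 or more mice examined across the 5 genes, 3 held a mouse far from the others of its group, by a gap to its nearest neighbour that exceeded Dixon's critical value for the group's range on the linear signal scale. The rate of about 1 in 20 groups by chance holds for values spread symmetrically, which linear signal is not, and on the log2(signal + 1) scale used for the tests 0 of the 15 groups exceeded the critical value. Lyz2 in aged knockout replicate 6 was 6875, with a gap of 0.75 of the range (0.37 on the log2 scale). Mmp12 in aged knockout replicate 4 was 418, with a gap of 0.72 (0.28). Ptafr in HFD knockout replicate 1 was 37.2, with a gap of 0.87 (0.65), on 13 counts.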

How the results depend on the processing

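Of 333 values of single genes under settings other than leaving out a mouse, 291 kept their direction and their side of the threshold, 28 changed sign, 12 gained a call and 2 lost one. In aged knockout against aged control mice the count of the 5 genes called was 0 and became 1 with a pseudocount of 10, centring on the sample median, the replicate block or voom, and 0 to 1 on leaving out each mouse (1 without aged knockout replicate 1, 5 or 6). In aged against young controls it was 0 and became 1 without aged control replicate 3 (range 0 to 1). In aged against young knockout mice it was 1 and became 3 with a pseudocount of 10, either centring or the depth covariate, and 0 with the replicate block or voom. Leaving out each mouse gave 0 to 3 there, with 0 without young knockout replicate 1 or 2, 3 without aged knockout replicate 1 and 2 without aged knockout replicate 4. The Lyz2 call had an adjusted p of 0.11 under the block, which gave Tcra a difference of -3.52 (adjusted p = 0.034) between aged knockout and aged control mice. Lgals3 passed at 2.08 (adjusted p = 0.049) with centring on the median in that comparison. The planned count test with another tool was not run, and voom was chosen after seeing the data. The cause of these changes was not tested.

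Of same-numbered knockout and control mice, 0 of 3 aged pairs, 0 of 3 young pairs and 3 of 4 HFD pairs had deviations over the 96 genes that correlated at over 0.1, as did 10 of 49 same-numbered pairs over all groups. Not every pair did so, and the numbers were taken as names that pair no samples. Centring moved the median of all genes in aged against young knockout mice to -0.060 (sample median) or -0.24 (reference genes), against -0.82. Over settings other than leaving out a mouse, the genes called in the panel ranged from 5 to 30 (main 23) for aged knockout against control, 32 to 55 (52) for aged against young knockout, 4 to 10 (5) for aged against young controls, 1 to 4 (2) for knockout against control under HFD, 3 to 6 (5) in young mice, 1 to 20 (17) for HFD against young knockout, 0 to 8 (0) for genotype by age and 0 to 2 (0) for genotype by diet.

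Signs changed as follows, in differences whose main values were under 1 in size. In knockout against control mice under HFD, Ptafr became -0.027 with a pseudocount of 10 and Tcra -0.074 with the block. In young knockout against control mice, Lgals3 became -0.35 with reference genes and -1.05 with the depth covariate, Mmp12 0.22 with the median and 0.18 with voom, Ptafr -0.22 with depth, and Tcra -0.32 with reference genes and -0.16 with depth. In aged knockout against control mice, Lyz2 became 0.68 with the median. In HFD against young controls, the median gave Lyz2 0.29, Lgals3 0.19 and Ptafr 0.11, and depth gave Lgals3 0.13. In HFD against young knockout mice, Mmp12 became -0.41 with the block and -0.032 with voom, and Ptafr 0.29 with depth. In aged against young controls, Lgals3 became 0.066 with reference genes and 0.13 with voom. For genotype by diet, reference genes gave Lyz2 0.066, Mmp12 0.17 and Ptafr 0.33, depth gave Ptafr 0.46, and Tcra became -0.14 with the median and -0.14 with the block. For genotype by age, Lyz2 became -0.42 with the block and -0.66 with voom, and Ptafr -0.46 with voom. Leaving out a mouse changed a sign in 57 of 420 values. Those ranges were -0.95 to 0.14 (Lgals3), -1.22 to 0.34 (Lyz2), -1.18 to 0.20 (Ptafr) and -0.10 to 1.81 (Tcra) for HFD against young controls; -0.58 to 0.61 (Lgals3), -1.16 to 0.39 (Lyz2), -0.49 to 0.60 (Mmp12), -0.036 to 0.73 (Ptafr) and -1.02 to 0.89 (Tcra) for young knockout against control; and -0.13 to 1.09 for Mmp12 in HFD against young knockout. For knockout against control under HFD they were -1.11 to 0.29 (Mmp12), -0.64 to 0.75 (Ptafr) and -0.22 to 0.49 (Tcra). For aged knockout against control they were -1.80 to 0.78 (Lyz2) and -1.58 to 0.49 (Mmp12), and for aged against young controls -0.82 to 0.27 (Lgals3) and -0.26 to 1.65 (Tcra). For genotype by diet they were -1.30 to 0.25 (Lyz2), -1.13 to 0.30 (Mmp12), -1.08 to 0.31 (Ptafr) and -0.77 to 1.14 (Tcra), and for genotype by age -1.52 to 1.06 (Lyz2), -1.58 to 0.50 (Mmp12) and -0.28 to 0.75 (Ptafr).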

Other observations

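Mmp12 and Tcra had the same recovered count in aged knockout replicate 1, 10 each, and in aged knockout replicate 2, 55 each. In replicate 1 the total count was 135141. After each sample was centred on 4 reference genes, an alternative chosen after seeing the data, the deviations from the group means of Lyz2 and Tcra correlated with r = 0.63 (rho = 0.61, adjusted permutation p = 0.044 and 0.039, n = 24, 10 pairs) and those of Lgals3 and Ptafr with r = 0.60 (rho = 0.59, adjusted permutation p = 0.018 and 0.037). Without the 2 mice farthest from the median on the first gene they gave r = 0.47 and r = 0.50. Lgals3 and Ptafr both had low counts, so their relation cannot be told apart from shared depth.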
